A study of Mus musculus with 4 samples.

Results

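The 9 genes described here are Pou5f1, which encodes the transcription factor Oct4, and 8 further regulators of pluripotency: Nanog, Sall4, Utf1, Foxd3, L1td1, Lin28a, Lin28b and Trim71. They were picked by gene symbol from the 15429 genes of the expression table. All 9 passed the filter on low values, which asked for a mean of 1 FPKM or more across the libraries, as did 12403 genes in all. FPKM is the number of sequenced fragments scaled to gene length and library depth, so it gives a level per length.

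The cells were of the mouse epiblast stem cell line OE7, derived from a post-implantation embryo and carrying an Oct4-Gip transgene, which the growth protocol describes as an Oct4-GFP line. The compared groups were 2 libraries of cells transfected with Tox4 esiRNA, a pool of enzymatically cut short interfering RNAs against Tox4, and 2 libraries of cells transfected with Luc esiRNA, the control. Both groups shared the transgene, passages 21 to 25, fibronectin-coated plates, N2B27 medium with Activin A at 20 ng/ml and Fgf2 at 12 ng/ml, and a reverse transfection with 1000 ng of esiRNA and 2 µl of lipofectamine 2000. The labels name 1 line and 1 esiRNA per target, and do not say whether the replicates came from separate cultures. The p-values therefore set group differences against the spread between replicate libraries, partly borrowed from other genes, which may be only technical. Any reads from the transgene that match Pou5f1 could not be told apart from reads of the gene itself.

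Oct4 binds DNA together with Sox2 at a composite motif and, with Nanog, holds the gene programme of pluripotent cells in place. Epiblast stem cells represent the primed state of pluripotency, which depends on Activin and Fgf signalling. Lin28a and Lin28b are RNA-binding proteins that block the maturation of let-7 microRNAs, and let-7 in turn represses the mRNAs of Lin28a, Lin28b and Trim71. Trim71, the mammalian counterpart of lin-41 in Caenorhabditis elegans, is an RNA-binding protein that represses mRNAs in stem cells.

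Sequences of this circuit are shown because 4 of the members carry matches to the same microRNA seed. The mature microRNAs are from RefSeq, with the seed, bases 2 to 8, in capitals. The let-7a seed is shared by 11 mature mouse microRNAs in that table and the miR-125b seed by 5.
mmu-let-7a-5p: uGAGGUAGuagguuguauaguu
mmu-miR-125b-5p: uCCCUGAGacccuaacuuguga

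The complement of the let-7 seed, CTACCTC, was found in annotated 3′ UTRs of Lin28a, Lin28b, Trim71 and Sall4. The first match of each is printed with the bases around it and the match in capitals. All 4 genes lie on the minus strand of GRCm38.
Lin28a (chr4:134005187-134005211): gcacagcctgttgaaCTACCTCatt
Lin28b (chr10:45381020-45381044): acccgggcgggaagtCTACCTCatg
Trim71 (chr9:114512470-114512494): aacattgcctaagtcCTACCTCagc
Sall4 (chr2:168748938-168748962): agggctttaatttatCTACCTCaat

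The complement of the miR-125 seed, CTCAGGG, occurred once in each 3′ UTR of the Lin28 and Trim71 genes, and is shown because this second seed separates them from Sall4, which had no such match.
Lin28a (chr4:134005299-134005323): aggtacatgagcaatCTCAGGGata
Lin28b (chr10:45378796-45378820): ggacaaagaactttgCTCAGGGaac
Trim71 (chr9:114512557-114512581): caaagaagaaatcgtCTCAGGGata

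The RefSeq promoter table, in build GRCm38.p6, gave an entry for 8 of the 9 members. The composite Sox-Oct motif, searched on both strands in the 250 bases before each start as CATTGT, any 1 base and ATGCAAA, lay in the promoter of Nanog, on the minus strand. It was found in 2 of 32851 promoters (0.00609%), which were those of the 2 listed Nanog starts and share the same bases. The shorter octamer core ATGCAAA, which overlaps the composite motif, was in 4.12% of promoters and, of the members, in that of Nanog. The 58 bases around the composite motif are shown on the plus strand, with the motif in capitals.
Nanog (chr6:122707392-122707449): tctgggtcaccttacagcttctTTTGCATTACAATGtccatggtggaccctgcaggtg

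The libraries held 14739221 and 12778044 reads assigned to genes with Tox4 esiRNA, and 19008803 and 14998194 with Luc esiRNA, as worked back from the FPKM values. Mitochondrially encoded genes took 1.05% of reads in each Tox4 library, and 0.864% and 0.840% in the Luc libraries. Tox4 itself had 8.65 and 8.89 FPKM with Tox4 esiRNA, against 16.7 and 17.5 FPKM with Luc esiRNA. The ratio of its mean FPKM, Tox4 over Luc esiRNA, was 0.512. Its log2 fold change, taken on FPKM + 1, was -0.89 with an SE of 0.05 (limma, adjusted p = 0.00228). Of the Tox4 exon bases, 1128 are shared with genes on the opposite strand. Markers of other cell types were low or moved as follows. Summed mesoderm markers were 6.61 to 6.97 FPKM with Tox4 esiRNA and 13.8 to 14.1 FPKM with Luc esiRNA, over 2 genes of 5 listed, of which the brachyury gene T fell. Summed neural progenitor markers were 91.5 to 91.9 FPKM with Tox4 esiRNA and 76.9 to 78.3 FPKM with Luc esiRNA. Of 4 genes tested, Sox1, Fabp7 and Ncam1 were higher, and Pax6 was under 1 FPKM. Nes, the most abundant, averaged 49.9 FPKM with Tox4 esiRNA and 52.1 FPKM with Luc esiRNA (log2 fold change -0.06, limma adjusted p = 0.377). The summed levels of fibroblast markers were 9.99 to 11.9 FPKM with Tox4 esiRNA and 10.80 to 10.99 FPKM with Luc esiRNA. Trophoblast markers summed to 9.51 to 10.1 FPKM with Tox4 esiRNA and 11.1 to 13.2 FPKM with Luc esiRNA, with none of 3 past the threshold with limma (2 at an unadjusted p under 0.05) and 1, Eomes, called lower by limma-voom. The primitive endoderm sum was at most 2.46 FPKM, that of 4 naive-state markers at most 7.54 FPKM, and the 1 germ cell marker in the table at most 0.376 FPKM. Of 8 primed-state markers, all tested, Sox2 was called higher and Cdh1 lower by limma, and limma-voom called 3. Among the 8, 6 values were negative and 2 positive, with a median log2 fold change of -0.11. An unadjusted p under 0.05 in limma was reached by 5 of them, against 21.6% of all tested genes. Over all tested genes, limma called 4.51% at an adjusted p under 0.05, and limma-voom called 12.1%. The part of these markers in the members' values was not tested, and in bulk RNA fewer cells of a type and less RNA per cell cannot be told apart.

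None of the 9 members passed the threshold, an adjusted p under 0.05 from the moderated test of limma with Benjamini-Hochberg adjustment over all tested genes. The background was 4.51% of tested genes called in either direction, 1.89% higher and 2.62% lower. Without adjustment, p was under 0.05 for 2 members, Utf1 and Lin28a, both lower with Tox4 esiRNA, which was 22.2% of the members against 21.6% of all tested genes. A second tool, limma-voom on the recovered reads, called 12.1% of tested genes and 0 members. The median log2 fold change was -0.0043 over the members and -0.0034 over all tested genes. The median absolute log2 fold change was 0.03 over the members and 0.08 over all tested genes. Over the 3616 tested genes at least as abundant as Foxd3, the member with the lowest level, it was 0.06. Of those genes, 25.1% had an unadjusted p under 0.05 in limma.

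**Figure D1:**
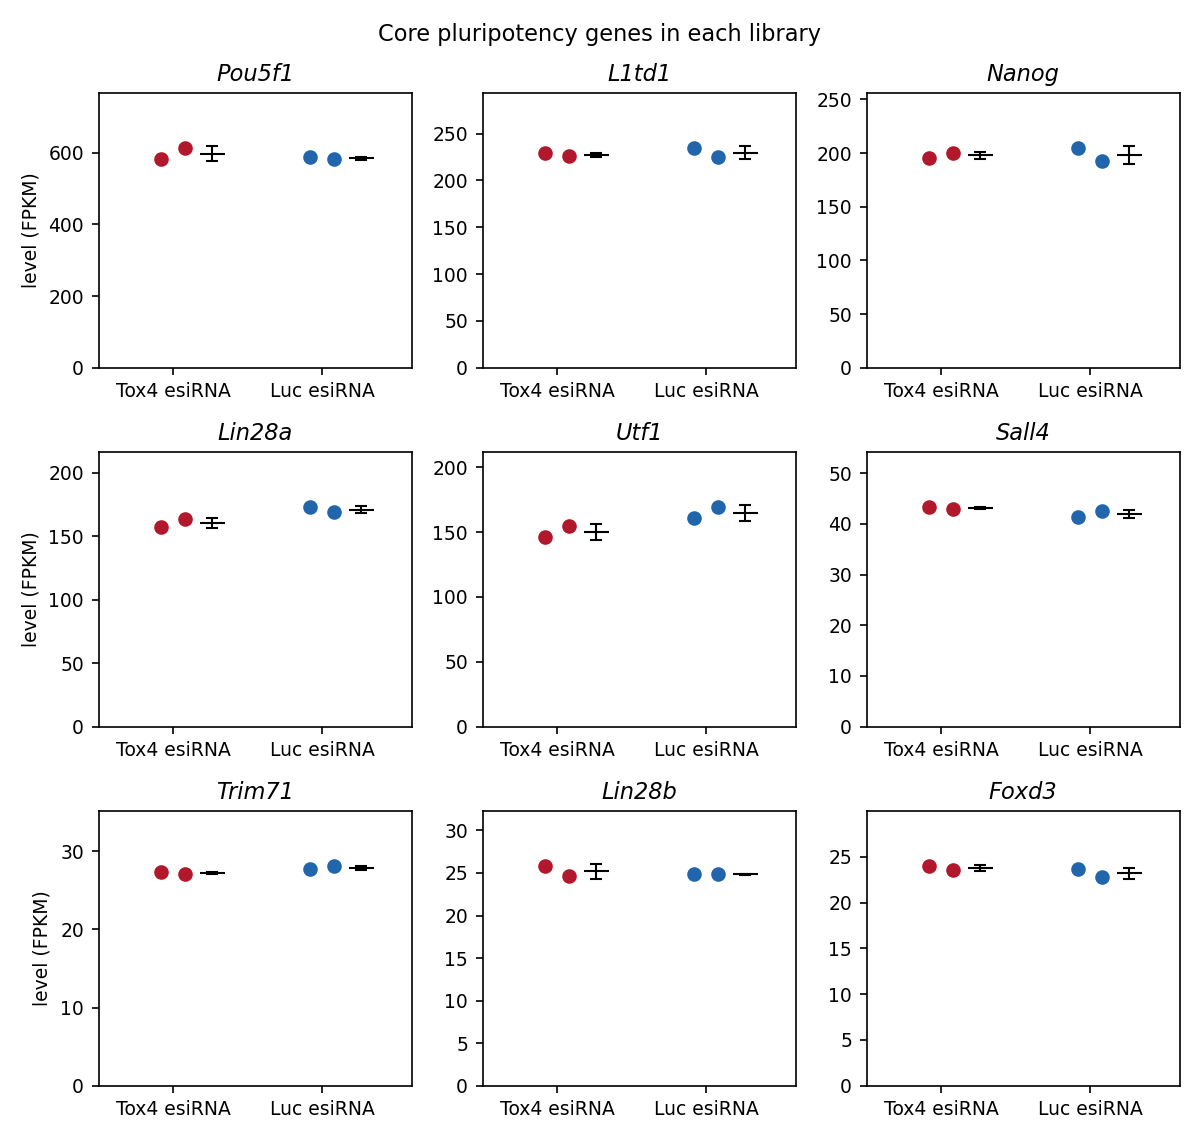
FPKM of each of the 9 members in each library, with Tox4 esiRNA left of Luc esiRNA and 1 point per library. Pou5f1 stands highest in every library, with 582.8 and 612.8 FPKM with Tox4 esiRNA against 588.2 and 582.1 FPKM with Luc esiRNA. Utf1 varies most for its level, from 145.98 to 169.03 FPKM. Both Tox4 libraries lie below both Luc libraries for Utf1, Lin28a and Trim71, and above them for Sall4.

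Pou5f1 (chr17:35506018-35510772, plus strand), the POU-domain factor at the centre of the pluripotency network, kept a very high level in both groups. It had 582.8 and 612.8 FPKM with Tox4 esiRNA, against 588.2 and 582.1 FPKM with Luc esiRNA. The groups overlapped, since the lower Tox4 library lay between the Luc libraries and the upper Tox4 library was the highest of all. The means were 598 ± 21.2 FPKM with Tox4 esiRNA and 585 ± 4.31 FPKM with Luc esiRNA (SD, n = 2 each). On the log2 scale the Tox4 group stood 0.03 above the Luc group (SE 0.04), with a 95% interval from -0.07 to 0.13 (adjusted p = 0.717 in limma), or 0.956 to 1.09 as a ratio of FPKM + 1. These values rest on 13646 to 19488 reads per library. An antisense gene, Gm19553, not analysed here, shares 317 of the exon bases of Pou5f1.

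Nanog (chr6:122707489-122714633, plus strand), a homeodomain factor that works with Oct4 and whose promoter carries the composite motif, had 195.6 and 200.2 FPKM with Tox4 esiRNA, against 204.5 and 192.6 FPKM with Luc esiRNA. Both Tox4 libraries lay between the Luc libraries. On the log2 scale the difference was -0.0043, with a 95% interval from -0.10 to 0.10 (limma adjusted p = 0.968). The ratio of Pou5f1 to Nanog FPKM was 2.98 and 3.06 in the Tox4 libraries and 2.88 and 3.02 in the Luc libraries, so the pair kept nearly the same proportion in all 4.

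Sall4 (chr2:168748332-168767943, minus strand), a zinc finger factor that associates with Oct4 and with the NuRD corepressor, had 43.28 and 42.98 FPKM with Tox4 esiRNA, against 41.45 and 42.57 FPKM with Luc esiRNA. It was the member whose Tox4 libraries both lay above both Luc libraries. The difference in means was small, at 43.1 ± 0.211 FPKM with Tox4 esiRNA and 42.0 ± 0.793 FPKM with Luc esiRNA (SD, n = 2 each). Its log2 fold change of 0.04 had a 95% interval from -0.05 to 0.13 (limma adjusted p = 0.615). A gene on the opposite strand, Gm14261, not analysed here, shares 526 exon bases with it.

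Utf1 (chr7:139943789-139945112, plus strand), a chromatin-associated factor and a known target of Oct4 and Sox2, showed the largest difference of the 9 members. It had 145.98 and 154.72 FPKM with Tox4 esiRNA, against 160.51 and 169.03 FPKM with Luc esiRNA. Both Tox4 libraries lay below both Luc libraries, and the gap between the groups was smaller than the distance between the replicates of either group. The means were 150 ± 6.18 FPKM with Tox4 esiRNA and 165 ± 6.02 FPKM with Luc esiRNA (SD, n = 2 each), a difference of -8.75%. This is -0.13 on the log2 scale (SE 0.04), with a 95% interval from -0.24 to -0.02. It did not pass the threshold with limma on FPKM (adjusted p = 0.164) or with limma-voom on recovered reads (adjusted p = 0.0637). Relative to Pou5f1, the Utf1 FPKM was 0.251 and 0.252 in the Tox4 libraries and 0.273 and 0.290 in the Luc libraries. The difference in this ratio was not tested.

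Foxd3 (chr4:99656299-99658622, plus strand), a forkhead factor needed to maintain pluripotent cells in the mouse embryo, was the member with the lowest level. It had 23.95 and 23.51 FPKM with Tox4 esiRNA, against 23.64 and 22.74 FPKM with Luc esiRNA, and the groups overlapped. Its log2 fold change was 0.03, with a 95% interval from -0.07 to 0.14 (limma adjusted p = 0.722). Its 724 to 1083 reads per library put the counting error at up to 3.72%, the widest of the members, against up to 0.856% for Pou5f1.

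L1td1 (chr4:98726734-98738480, plus strand), an RNA-binding protein derived from a LINE-1 element and found in human embryonic stem cells in complexes with LIN28, had 228.7 and 225.6 FPKM with Tox4 esiRNA, against 234.2 and 224.5 FPKM with Luc esiRNA. Both Tox4 libraries lay between the Luc libraries. L1td1 thus differed by -0.01 on the log2 scale, with a 95% interval from -0.10 to 0.07 (limma adjusted p = 0.876).

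Lin28a (chr4:134003330-134018841, minus strand), which blocks let-7 maturation in the cytoplasm, had 157.5 and 163.1 FPKM with Tox4 esiRNA, against 172.6 and 168.9 FPKM with Luc esiRNA. Both Tox4 libraries lay below both Luc libraries. The means were 160 ± 3.91 FPKM with Tox4 esiRNA and 171 ± 2.61 FPKM with Luc esiRNA (SD, n = 2 each), a difference of -6.14%. This is -0.09 on the log2 scale (SE 0.04), with a 95% interval from -0.18 to -0.0049, and was not past the threshold with limma (adjusted p = 0.210) or with limma-voom (adjusted p = 0.0993). A gene on the opposite strand, Gm13061, not analysed here, shares 234 exon bases with Lin28a.

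Lin28b (chr10:45376620-45486395, minus strand), the paralog of Lin28a with the same effect on let-7, had 25.78 and 24.59 FPKM with Tox4 esiRNA, against 24.83 and 24.88 FPKM with Luc esiRNA. The Luc libraries lay between the Tox4 libraries, and the log2 fold change was 0.02, with a 95% interval from -0.09 to 0.12 (limma adjusted p = 0.855). The Lin28a level was 6.11 and 6.63 times that of Lin28b in the Tox4 libraries and 6.95 and 6.79 times in the Luc libraries. The difference between the paralogs in their response was not tested.

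Trim71 (chr9:114507133-114564369, minus strand), the let-7 target that represses mRNAs, had 27.28 and 27.07 FPKM with Tox4 esiRNA, against 27.72 and 28.06 FPKM with Luc esiRNA. Both Tox4 libraries lay below both Luc libraries, by less than 1 FPKM. The log2 fold change was -0.04, with a 95% interval from -0.13 to 0.06 (limma adjusted p = 0.646). The gene C130032M10Rik, on the opposite strand and not analysed here, shares 135 exon bases with it.

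**Figure D2:**
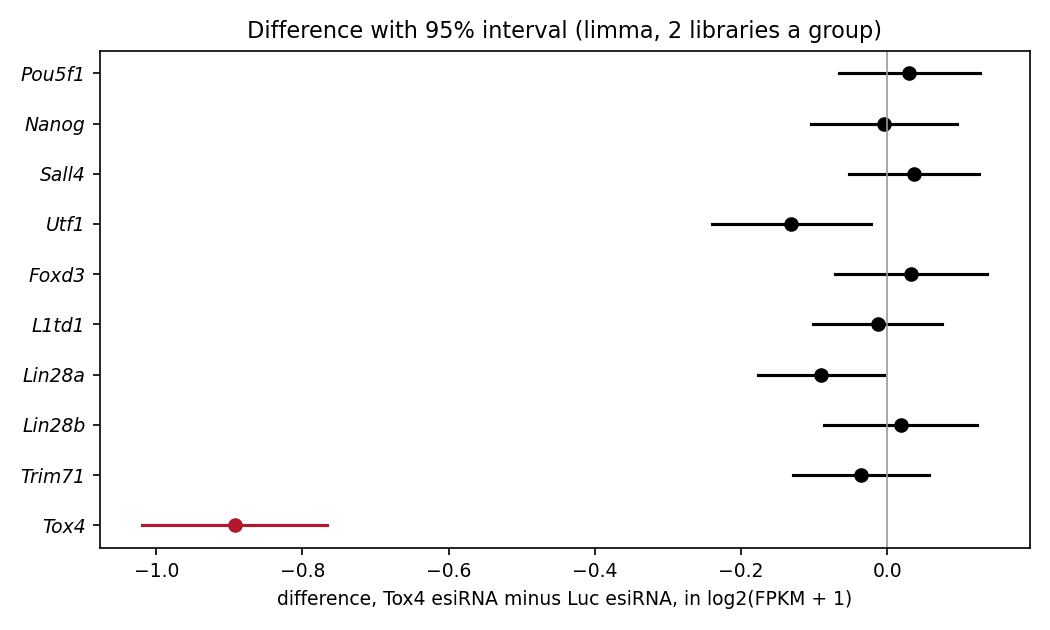
Log2 fold change of each member, Tox4 over Luc esiRNA, on the log2(FPKM + 1) scale, with bars for the 95% interval from limma. The intervals of Utf1 (-0.24 to -0.02) and Lin28a (-0.18 to -0.0049) lie below 0, without adjustment for the number of genes tested, and those of the other 7 members span 0.

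The intervals cover the spread between these libraries only. Over the 9 members the lowest bound was -0.24, a ratio of 0.846 on the FPKM + 1 scale, for Utf1. The highest bound was 0.14, a ratio of 1.10, for Foxd3. The groups did not overlap for 52.0% of all tested genes and 54.3% of those at least as abundant as Foxd3, against 4 members (44.4%). Of these, 1 member lay above, where the share over all tested genes was 25.3%, and 3 lay below, where it was 26.7%. The median SE was 0.0392 on the log2 scale over the members and 0.0615 over all tested genes, but 0.0416 over the 3616 tested genes at least as abundant as Foxd3, of which 6.75% were called.

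**Figure D3:**
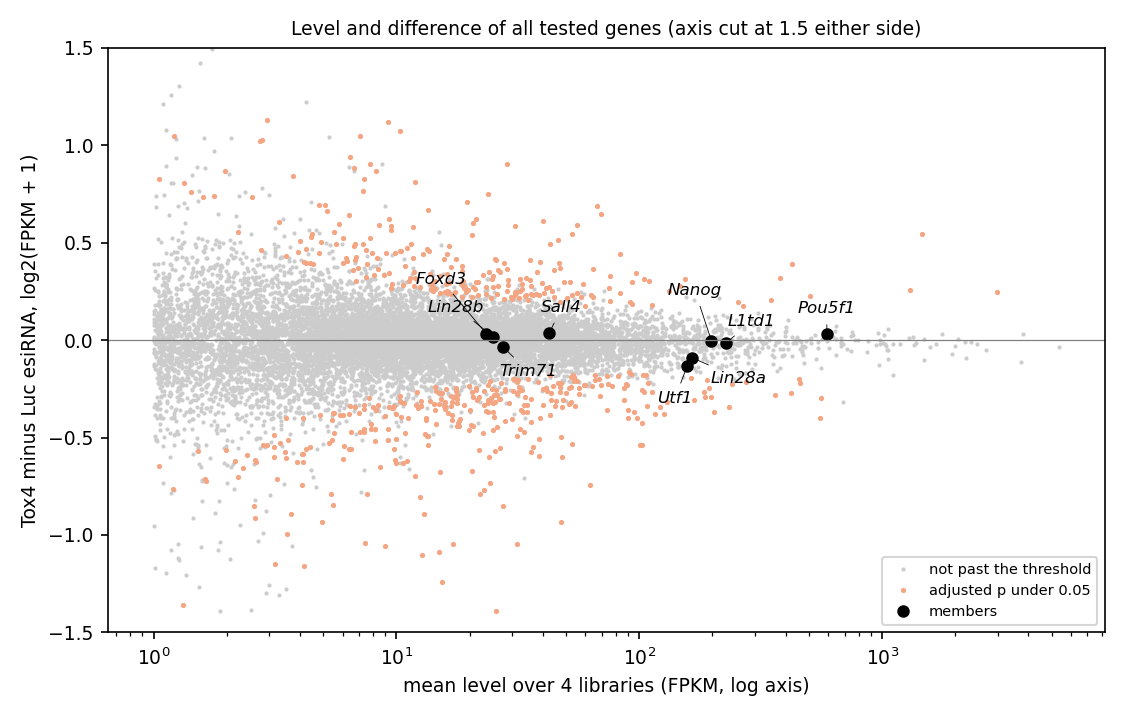
Log2 fold change of each tested gene, Tox4 over Luc esiRNA, against its mean level over the 4 libraries on a log scale. The 9 members are marked, and 13 genes beyond ±1.5 are not shown. The members sit in the right part of the cloud and close to 0, between -0.13 and 0.04, while Tox4 lies at -0.89.

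The order of the levels per length was Pou5f1 (mean of 591 FPKM over the 4 libraries), L1td1 (228 FPKM), Nanog (198 FPKM), Lin28a (166 FPKM), Utf1 (158 FPKM), Sall4 (42.6 FPKM), Trim71 (27.5 FPKM), Lin28b (25.0 FPKM) and Foxd3 (23.5 FPKM). Pou5f1 was rank 62 of the tested genes, above 99.5% of them, and stood at 2.59 times the level of L1td1. The widest step, 3.70 times, lay between Utf1 and Sall4 and divides 5 members, with a lowest library value of 145.98 FPKM in Utf1, from 4 members, with a highest of 43.28 FPKM in Sall4. The ranges over the libraries were separate for 7 of the 8 neighbouring pairs. Lin28a and Utf1 overlapped, with Lin28a higher in 3 of 4 libraries. Foxd3, the lowest, was still above 70.8% of tested genes.

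Of 644 genes that averaged 100 FPKM or more, the 3 whose pattern over the 4 libraries was most like that of Pou5f1 were Eif3f, Rps15 and Tkt. Likeness was the largest difference from Pou5f1 in log2(FPKM + 1) in any library after each gene's mean was taken off, and was 0.00729 for Eif3f, 0.00745 for Rps15 and 0.00810 for Tkt. With 4 libraries and such small variation, this is a description of these libraries.

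In the 3′ UTRs, Lin28b and Trim71 each had 4 let-7 seed matches, Lin28a had 2 and Sall4 had 1. Trim71 and Lin28b were among 9 genes with at least 4 matches, of 11316 tested genes with an annotated 3′ UTR (0.0795%). All 9 had a 3′ UTR of at least 2000 bases, among which they made up 0.314%. A let-7 match was present in 9.53% of those genes, and in 20.9% of the 2865 genes with a 3′ UTR of at least 2000 bases, as those of Lin28a (2775 bases), Lin28b (4445 bases) and Trim71 (5512 bases) are. Both a let-7 and a miR-125 match, as in these 3 members, were present in 2.51% of genes, and in 7.54% of those with a long 3′ UTR. Nanog, Pou5f1, Foxd3 and Utf1 had no match to either seed in UTRs of 1078, 221, 588 and 122 bases, and the L1td1 transcript used has no annotated 3′ UTR. The median log2 fold change was 0.0022 over tested genes with a let-7 match and -0.0033 over those without, but 0.0028 with and 0.0120 without in the genes with a long 3′ UTR. With a match, 27 genes were higher and 24 lower past the threshold in limma, or 4.73%, against 4.41% without. Among long 3′ UTRs the share called was 2.68% with a match and 3.13% without. The mature microRNAs were not measured in these poly(A) libraries, and a seed match is a match of letters, not a site known to be bound.

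**Figure D4:**
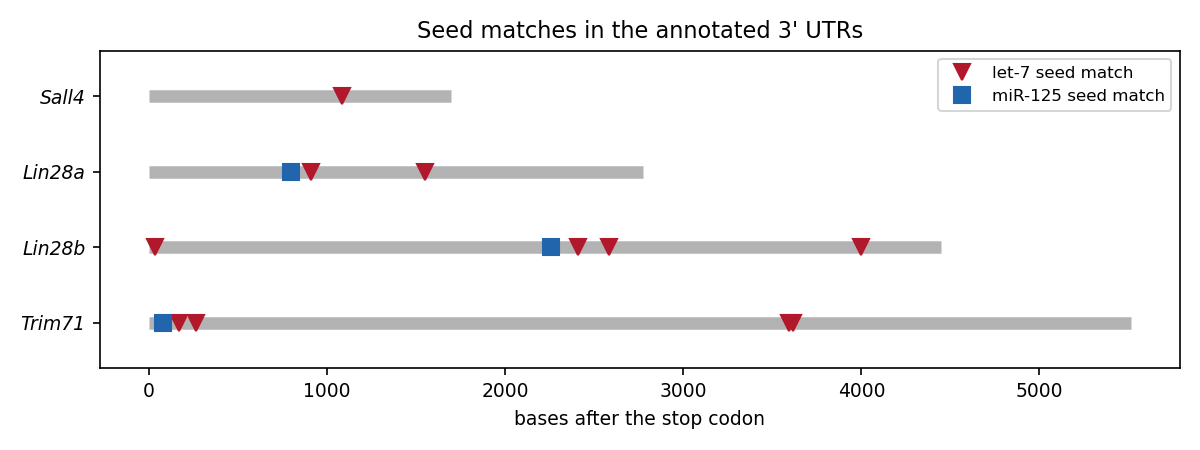
Positions of seed matches to let-7 and miR-125 along the annotated 3′ UTRs of the members with a match, in bases from the stop codon, with the line giving the UTR length. Lin28a, Lin28b and Trim71 carry both kinds, with 2, 4 and 4 let-7 matches and 1 miR-125 match each, and Sall4 carries 1 let-7 match.

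Genes around the members were read from 8 lists, in which 92 distinct genes were tested and 9 were called, 6 higher and 3 lower, or 9.78%, against 4.51% of all tested genes and 6.75% of those at least as abundant as Foxd3. With limma-voom on recovered reads 23 of the 92 (25%) were called, against 12.1% of all tested genes. The lists were chosen with earlier results of these data known, so these shares cannot serve as a test of the lists. Listed genes outside the tested set were not analysed here. Of 16 known regulators of Pou5f1 transcription, 1 was called by limma and 2 by limma-voom (Sox2 and Tcf7l1, both higher). Their median log2 fold change was 0.04. At an unadjusted p under 0.05 in limma there were 6 of the 16, against 21.6% of all tested genes. The 1 called by limma was Sox2, the partner of Oct4. It had 93.2 and 87.6 FPKM with Tox4 esiRNA, against 76.3 and 76.4 FPKM with Luc esiRNA. Both Tox4 libraries were higher, by 0.24 on the log2 scale with an SE of 0.04 (adjusted p = 0.0355 in limma). Among 20 protein partners and corepressors of Oct4 and Sall4, Sox2 was again the 1 gene called by limma, while limma-voom called 5, all higher (Sox2, Sall1, Zfp281, Parp1 and Chd4). The median over the 20 was 0.03, with 17 positive and 3 negative values, and 5 had an unadjusted p under 0.05 in limma. Over all tested genes, 6057 values were positive and 6346 negative, and 21.6% had an unadjusted p under 0.05.

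Known joint targets of Oct4 and Sox2 moved in both directions, with 2 of 16 higher and 3 lower by limma, 8 called by limma-voom, and a median of -0.02. At an unadjusted p under 0.05 in limma there were 10 of the 16, against 21.6% of all tested genes. Tdgf1, the Nodal co-receptor Cripto, had 328 and 325 FPKM with Tox4 esiRNA, against 404 and 390 FPKM with Luc esiRNA (log2 fold change -0.28, limma adjusted p = 0.0161). Upp1, a uridine phosphorylase, had 75.9 and 79.0 FPKM with Tox4 esiRNA, against 104 and 101 FPKM with Luc esiRNA (log2 fold change -0.40, limma adjusted p = 0.00875). These 2 genes were lower in both Tox4 libraries, as was Spp1, the secreted protein osteopontin. Spp1 had 1.47 and 1.70 FPKM with Tox4 esiRNA, against 4.72 and 4.73 FPKM with Luc esiRNA (log2 fold change -1.15, limma adjusted p = 0.00446). The higher genes were Sox2 and Mycn, a Myc-family transcription factor, which had 17.5 and 17.7 FPKM with Tox4 esiRNA, against 15.02 and 14.4 FPKM with Luc esiRNA (log2 fold change 0.24, limma adjusted p = 0.0475).

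On the let-7 side, none of 14 genes for let-7 maturation and uridylation passed the threshold with limma, with a median of 0.03. At an unadjusted p under 0.05 there was 1, against 21.6% of all tested genes, and limma-voom called 1, against 12.1%. The largest differences were those of Xpo5, the export factor for microRNA precursors, at 0.15 (limma adjusted p = 0.0851, limma-voom adjusted p = 0.0213) and Dgcr8, the partner of Drosha, at 0.13 (limma adjusted p = 0.252). Of 20 known let-7 target genes 3 were higher and 0 lower by limma, 5 were called by limma-voom, and the median was 0.02. At an unadjusted p under 0.05 in limma there were 7 of the 20, against 21.6% of all tested genes. The 3 called by limma were Mycn and the D-type cyclins Ccnd1 and Ccnd2, which promote entry into S phase. Ccnd1 had 32.8 and 31.2 FPKM with Tox4 esiRNA, against 27.1 and 27.6 FPKM with Luc esiRNA (log2 fold change 0.22, limma adjusted p = 0.0488). Ccnd2 had 41.4 and 39.7 FPKM with Tox4 esiRNA, against 34.2 and 34.3 FPKM with Luc esiRNA (log2 fold change 0.24, limma adjusted p = 0.0348).

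Of 6 mRNAs known to be repressed by Trim71, 1 was higher and 0 were lower by limma, 2 were called by limma-voom, and the median was 0.09. At an unadjusted p under 0.05 in limma there were 2 of the 6, against 21.6% of all tested genes. Cdkn1a, which encodes the cell cycle inhibitor p21, had 82.8 and 87.6 FPKM with Tox4 esiRNA, against 54.8 and 53.1 FPKM with Luc esiRNA. Both Tox4 libraries stood above both Luc libraries, on average by 0.65 on the log2 scale with an SE of 0.04 (adjusted p = 0.00265 in limma), while the level of Trim71 was as given above. Of the 9 called genes in these lists, 8 lost the call when 1 library was left out. Spp1, Tdgf1 and Upp1 lost it without either Luc library, Sox2 and Ccnd2 also without Tox4 replicate 1, and Mycn, Ccnd1 and Sall2 whichever of the 4 libraries was left out, with limma adjusted p up to 0.236. Cdkn1a kept it in each case, with an adjusted p of at most 0.0302.

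Paralogs of the members were read in the same way. Of 6 tested POU-family genes none passed the threshold with limma, with a median of -0.05. At an unadjusted p under 0.05 there were 2, against 21.6% of all tested genes, and limma-voom called 2, against 12.1%. Pou3f1, also called Oct6 and the most abundant of them, had 62.2 and 64.5 FPKM with Tox4 esiRNA, against 65.5 and 65.2 FPKM with Luc esiRNA (log2 fold change -0.04, limma adjusted p = 0.533). Pou2f3 had 1.79 and 1.44 FPKM with Tox4 esiRNA, against 2.84 and 2.82 FPKM with Luc esiRNA (log2 fold change -0.55, limma adjusted p = 0.0505, limma-voom adjusted p = 0.00270). Pou2f1, Pou4f2 and Pou6f1 differed by -0.07, -0.03 and -0.06.

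The relatives of Sall4 had values further from 0 than Sall4 itself. Sall2 had 30.6 and 31.6 FPKM with Tox4 esiRNA, against 25.0 and 26.9 FPKM with Luc esiRNA, and was higher by 0.25 on the log2 scale with an SE of 0.05 (adjusted p = 0.0488 in limma). Sall1 had 13.0 and 11.8 FPKM with Tox4 esiRNA, against 10.2 and 10.5 FPKM with Luc esiRNA (log2 fold change 0.24, limma adjusted p = 0.0926). Whether these fold changes differ from that of Sall4 was not tested.

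**Figure D5:**
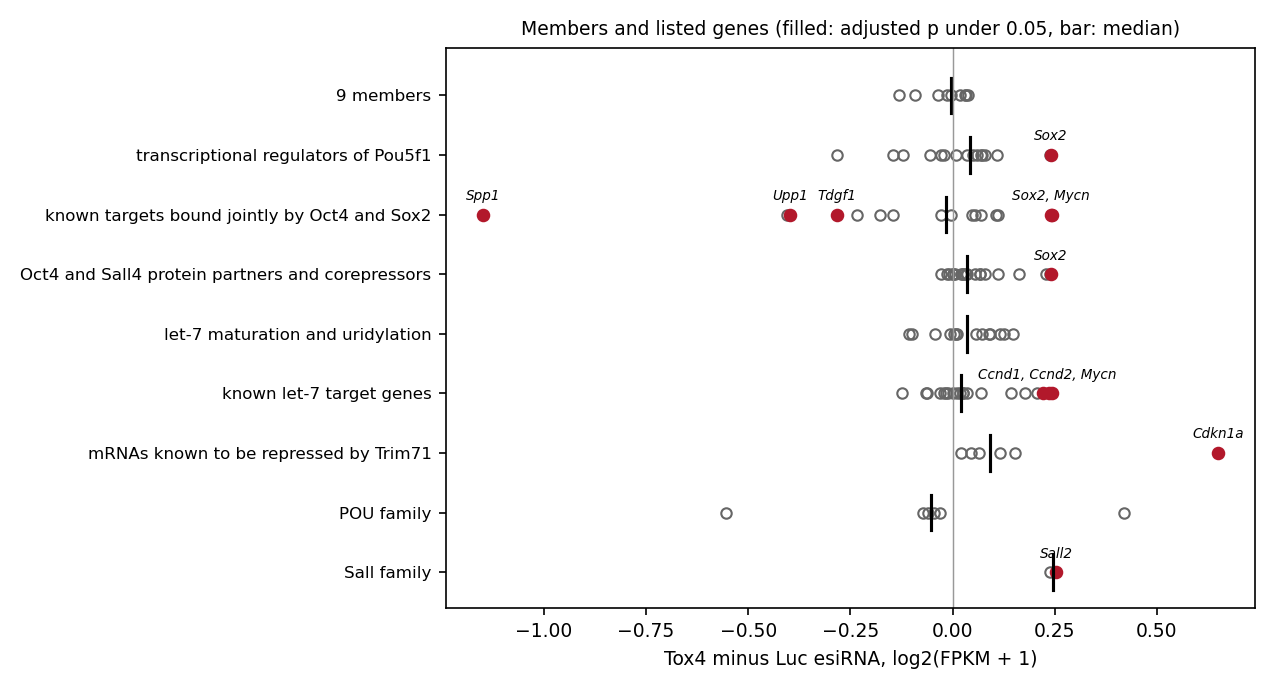
Log2 fold change, Tox4 over Luc esiRNA, of the 9 members and of each tested gene in the 8 lists, 1 row per list, with filled points for an adjusted p under 0.05 from limma and a bar for the median. The members lie between -0.13 and 0.04 with no filled point, while 9 distinct listed genes are filled, from Spp1 at -1.15 to Cdkn1a at 0.65.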

How the data were processed

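The authors deposited FPKM values per gene, with identical values in 1 file per library and in a series table. The submitters' processing notes name CASAVA 1.8, STAR 2.3.0e and build GRCm38.p1, and for the counter, the annotation and strand the sources used here give nothing. Reads were worked back from the FPKM values, of which 100% were whole multiples of 1 read (relative tolerance 2e-13), and a whole gene length set the common factor that 4.29% of tested genes needed. Tested values were log2(FPKM + 1), so fold changes of low genes are understated, in limma 3.58.1 (R 4.3.3), with an intensity trend, 2 residual and 4.01 prior degrees of freedom, two-sided, without covariates, and the script was tested on simulated data. Coordinates, exon overlaps and 3′ UTRs came from GENCODE M21, in which 98.7% of identifiers were found; the UTR is that of the transcript with the longest coding sequence. Replicates differed by more than sampling noise (chi-square per degree of freedom of 1.88 with Tox4 esiRNA and 1.59 with Luc esiRNA). Members, lists and tests were chosen with earlier results of these data known. Genes were named if they were members, Tox4, listed genes past the threshold, the 2 largest differences of a list without any, tested POU and Sall paralogs, or the 3 most like Pou5f1. For 1 gene that this rule names, the values are not reported here. Alternatives varied the pseudocount, filter, trend, scaling, replicate block, tool and libraries used.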

Additional observations from a re-analysis of the deposited data

How the results depend on the processing

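No member passed the threshold under any of 13 alternatives (117 combinations of member and alternative). The smallest adjusted p was 0.0637, for Utf1 with limma-voom on recovered reads, and the largest absolute log2 fold change 0.17, also for Utf1. Directions turned in 4 members whose values lie near 0. When 1 library was left out, the log2 fold change ran from -0.0059 (without Tox4 replicate 2) to 0.0664 for Pou5f1, from -0.0472 to 0.0385 for Nanog (0.0385 without Luc replicate 1 and 0.0124 without Tox4 replicate 1), from -0.0439 to 0.0169 (without Luc replicate 1) for L1td1, and from -0.0147 (without Tox4 replicate 1) to 0.0510 for Lin28b. Pou4f2 ran from -0.0896 to 0.0262 (without Tox4 replicate 2). The number of genes called over the whole table depended much more on the settings. Against 234 higher and 325 lower, there were 146 and 202 without a filter, 365 and 476 with a filter of 5 FPKM, 33 and 45 without the intensity trend, and 776 and 725 with limma-voom. With 1 library left out there were 27 to 176 higher and 34 to 296 lower, with the lone library of a group assumed to vary like the other group. In the gene lists, the 9 genes called became 4 without a filter, 2 without the trend, 23 with limma-voom and 1 to 6 with 1 library left out. The causes were not tested.

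Deviations from the group means had a correlation of -0.04 over tested genes between same-numbered libraries. The labels do not say whether same-numbered libraries were handled as pairs. With the replicate number as a block, 222 genes were higher, 334 lower, 8 listed genes and 0 members were called, and Pou5f1 stood at 0.03 (limma adjusted p = 0.836). Under the block Mycn (limma adjusted p = 0.0686) and Ccnd1 (0.0662) lost their calls and Tcf7l1 gained one (0.0337).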
